A study of Rattus norvegicus with 16 samples.

Results

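The electrical genes of the left ventricle (LV) were followed in rats with chronic volume overload (VO), using 4 connexin genes (Gja1, Gja4, Gja5 and Gjc1), the sodium channel subunit gene Scn4b, the pacemaker channel genes Hcn2 and Hcn4, and the calcium channel gene Cacna1c. The probe sets of the 8 genes were picked by annotated symbol. Of the 31099 probe sets on the array, 12 carry 1 of these symbols and no other. Gja1 has 3 of them, Gja5 and Cacna1c have 2 each, and the other genes have 1 each. All 12 were measured and tested. The samples were LVs of adult male Sprague-Dawley rats with 1 array per rat: 4 control rats, titled baseline in the sample labels, and 4 rats each at 8, 16 and 24 weeks after an aortocaval fistula (ACF) was made, an opening between the abdominal aorta and the inferior vena cava that sends extra blood through the heart. By the times in the study's methods, 8 weeks stands for the phase of compensated hypertrophy (CH) and 16 weeks for heart failure (HF). The descriptions of the arrays titled 24 weeks read 24, 25, 26 and 27 weeks. The study describes its controls as sham, whereas the labels title them baseline and do not give their age when killed. If they were taken at baseline, age and surgery cannot be told apart from ACF in any comparison with control.

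Each heartbeat passes from cell to cell through gap junctions, channels made of connexins. Gja1 encodes the main connexin of working ventricular muscle, Gja5 that of atrial muscle, the fast conduction fibres and arterial endothelium, Gja4 an endothelial connexin, and Gjc1 a connexin of the nodes. The upstroke of the ventricular action potential is carried by sodium channels, whose pore works with small beta subunits such as the one that Scn4b encodes. Hcn2 and Hcn4 encode channels of the pacemaker current, with Hcn4 the main one of the sinus node, and Cacna1c encodes the pore of the L-type calcium channel that starts contraction.

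Values are log2 intensities minus the median of their array, so a value of 0 is the level of the median probe set and a difference of 1 is a doubling of intensity. Group means were compared with limma, which fits a linear model to each probe set and pools what the probe sets show of the spread. A probe set passed when its Benjamini-Hochberg adjusted p over all 31042 probe sets other than the manufacturer's controls was under 0.05. The deposited array medians lay at 2 levels, 5.92 to 5.96 on 7 arrays (1 of the 4 at 8 weeks, 2 of the 4 at 16 weeks and all 4 at 24 weeks) and 6.13 to 6.17 on 9 arrays (3 at 8 weeks, 2 at 16 weeks and all 4 control arrays). No source used here names a reason for the levels. Where the level was fitted as a block, it was estimated from the 8- and 16-week groups, which hold arrays of both levels. As a check of the LV label, the mean level of 11 ventricular muscle markers was 7.43 to 7.85 on every array, whereas that of 4 atrial muscle markers ran from 0.92 to 6.06 between arrays, with the highest values on replicate 2 at 8 weeks (5.72) and replicate 3 at 24 weeks (6.06).

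Of the 12 probe sets, 1 passed the test, that of Scn4b, which was lower at 16 weeks than in control rats. At 16 weeks 5.47% of all 31042 probe sets passed, so 1 of 12 lay near that background. None of the 12 passed at 8 weeks, where 0.0322% of all probe sets did, or at 24 weeks, where 0.438% did. At an unadjusted p under 0.05, 0 of 12 stood out at 8 weeks, 2 at 16 weeks and 3 at 24 weeks. Of all 31042 probe sets, 1926, 6057 and 4771 did so at these times. With only 12 probe sets, these counts lay near the shares of the whole array. Between the ACF groups themselves, none of the 12 passed for 16 against 8 weeks, 24 against 16 weeks or 24 against 8 weeks. Of all probe sets, 0%, 0.0129% and 0% passed. In these comparisons 2, 0 and 1 of the 12 had an unadjusted p under 0.05, as did 2194, 2425 and 1936 of all 31042. The 3 comparisons with control share the same 4 control arrays.

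**Figure D1:**
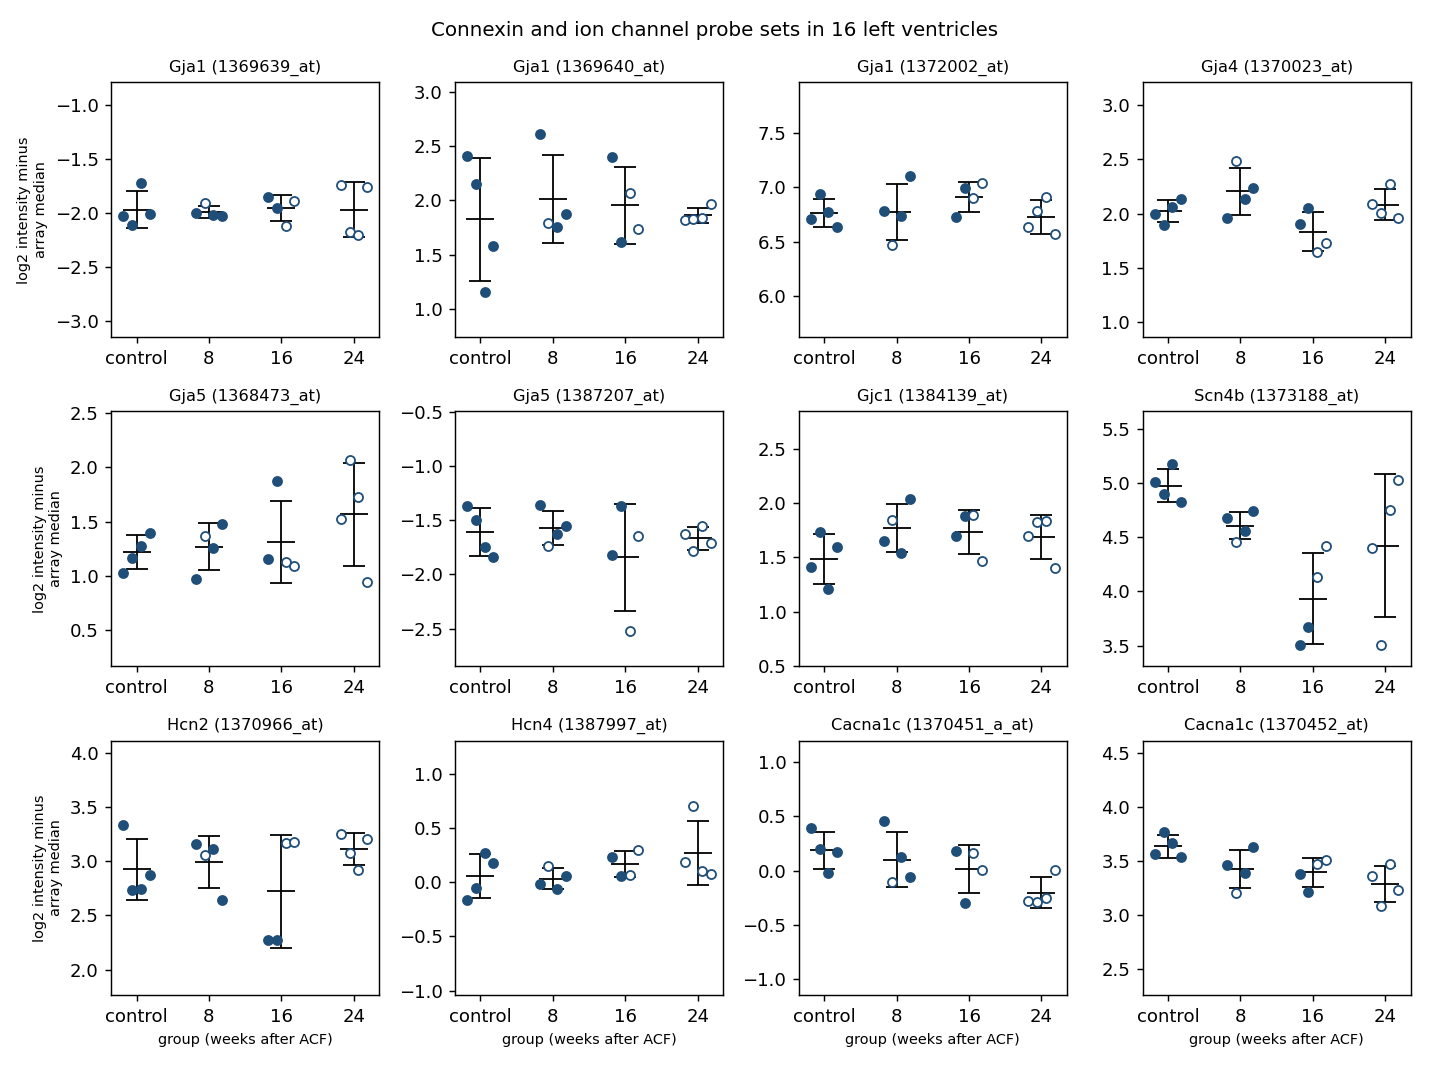
Each panel shows 1 probe set, with the group on the x axis (control, then 8, 16 and 24 weeks after ACF) and the log2 intensity minus the array median on the y axis. Points are single arrays (filled for the higher level of array medians, open for the lower level), and bars are the mean ± SD of 4 arrays. Every panel spans the same range of log2 units. The 4 Scn4b points at 16 weeks lie between 3.51 and 4.42, below all 4 control points, whereas most other panels show overlapping groups.

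Scn4b, measured by the single probe set 1373188_at, had the largest change of the 12 probe sets. Its values were 5.01, 4.90, 5.17 and 4.82 in control rats, 4.68, 4.45, 4.56 and 4.74 at 8 weeks, 3.51, 3.67, 4.14 and 4.42 at 16 weeks, and 4.40, 3.51, 4.75 and 5.03 at 24 weeks. All 4 arrays at 8 weeks and all 4 at 16 weeks lay below the lowest control array, whereas at 24 weeks 1 array was as low as the lowest at 16 weeks and another was within the control range. The mean was 3.93 ± 0.42 at 16 weeks, against 4.98 ± 0.15 in control rats (SD, n = 4 each), which is 0.485 of the control level. The log2 fold change was -1.04 (SE 0.25, 95% interval -1.56 to -0.52, limma adjusted p = 0.0203). The exact two-sided permutation test gave p = 0.0286, the smallest that 4 arrays against 4 can give.

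The 2 arrays with the lowest Scn4b at 16 weeks were those at the higher level of array medians. When the array level was fitted as a block, Scn4b had a log2 fold change of -1.19 (limma adjusted p = 0.0175), and on the higher-level arrays alone it was -1.38 (limma adjusted p = 0.000354). Without these 2 arrays it was -0.70 and no longer passed (limma adjusted p = 0.272). The call was close to the threshold. It was lost when control replicate 1, control replicate 3, 16-week replicate 1 or 16-week replicate 2 was left out, with limma adjusted p of 0.0588, 0.0638, 0.0725 and 0.0624 and log2 fold changes of -1.03, -0.98, -0.90 and -0.96.

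At 8 weeks Scn4b averaged 4.61 ± 0.13, against 4.98 ± 0.15 in control rats, a log2 fold change of -0.37 (SE 0.25, limma adjusted p = 0.938). The arrays of the 2 groups did not overlap (exact two-sided permutation p = 0.0286), but the model, whose spread comes from all 4 groups, gave an interval of -0.89 to 0.15. At 24 weeks Scn4b averaged 4.42 ± 0.66, against 4.98 ± 0.15 in control rats, a log2 fold change of -0.55 (limma adjusted p = 0.296). Without replicate 2 at 24 weeks, the array with the value 3.51, this was -0.25, and with the level as a block over all arrays it was -0.86 (limma adjusted p = 0.404).

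The times were also set against each other, which tests whether the difference from control changed with time. Scn4b at 16 weeks lay below 8 weeks on all 4 arrays, with a log2 fold change of -0.67 (SE 0.25, interval -1.20 to -0.15, limma adjusted p = 0.582). Within the higher-level arrays, 2 at 16 weeks and 3 at 8 weeks, it was -1.07 and passed (limma adjusted p = 0.0089). For 24 against 16 weeks the log2 fold change was 0.49 (interval -0.03 to 1.01, limma adjusted p = 0.657). The data do not separate the level at 24 weeks from that at 16 weeks or from that at 8 weeks, where the log2 fold change was -0.18 (interval -0.71 to 0.34).

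Markers of macrophages and fibroblasts rose in the same hearts. The mean level of 8 macrophage markers was 2.31 to 3.07 at 16 weeks and 1.19 to 1.57 in control rats. Of the 8 genes 7 rose, where 5.47% of all probe sets passed in either direction. Of 8 fibroblast markers 4 rose at 16 weeks, led by Postn, a matrix protein of activated fibroblasts, with a log2 fold change of 4.28 (limma adjusted p = 0.000516), and the mean of the 8 was 4.29 to 4.73 at 16 weeks and 3.50 to 4.22 in control rats. The other non-muscle lists had few calls at 16 weeks. Of 9 vascular endothelial markers 1 rose, and of 6 glial and neuronal markers 1 rose and 1 fell. Of 7 arterial endothelial markers and of 8 smooth muscle and pericyte markers 0 passed. The mean of the 11 ventricular markers was 7.43 to 7.79 at 16 weeks, and 7.75 to 7.84 in control rats, and 0 of the 11 passed. Replicate 1 at 16 weeks had the lowest ventricular mean, the highest macrophage mean and the lowest Scn4b value of its group. In bulk tissue, fewer cells of a type and less RNA per cell cannot be told apart. In a fit chosen after seeing the data, every array was centred on the ventricular markers instead of its median. Scn4b was still lower at 16 weeks (log2 fold change -0.93, limma adjusted p = 0.0206). The part of the macrophage and fibroblast changes in the Scn4b result was not tested.

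**Figure D2:**
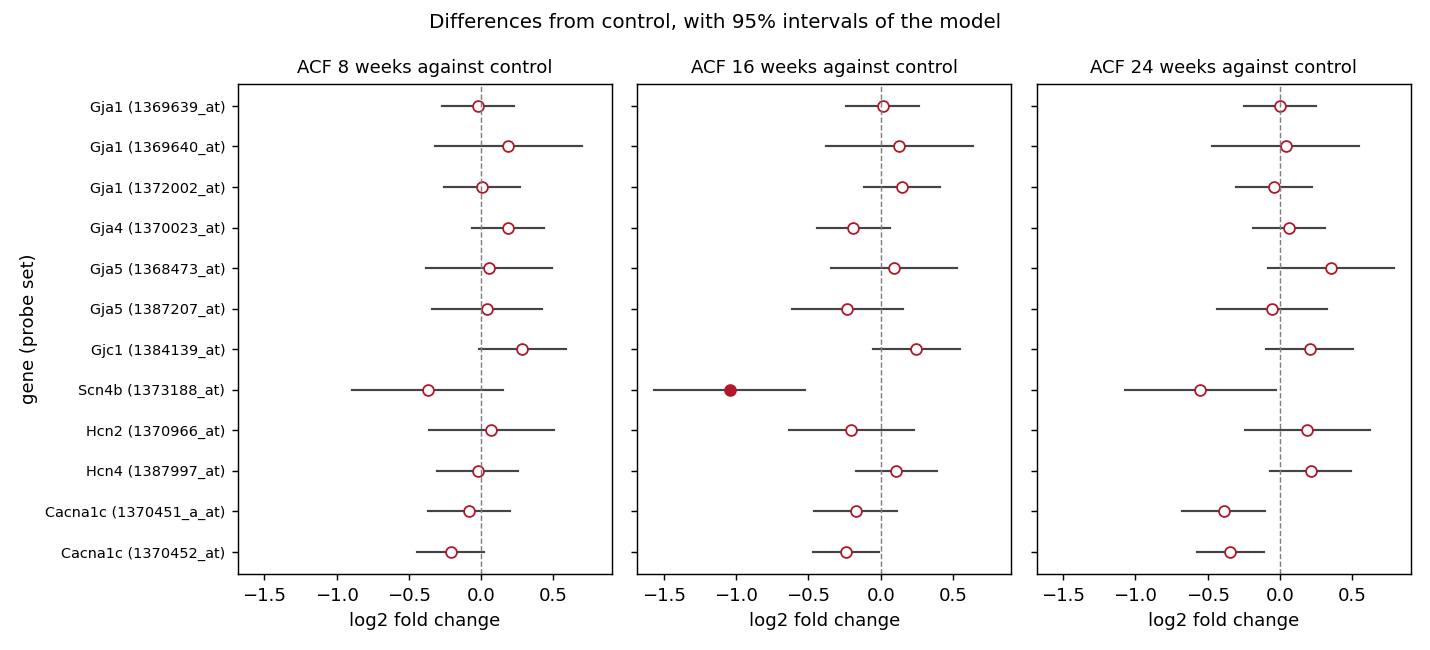
Log2 fold changes of the 12 probe sets (x axis) by gene and probe set (y axis) at 8, 16 and 24 weeks after ACF against control, with lines for the 95% intervals of the linear model and filled points where the adjusted p was under 0.05. Scn4b at 16 weeks, at -1.04, is the single filled point, and most of the other intervals span 0.

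The L-type channel gene Cacna1c had 2 probe sets, and both were lower at the later times without passing. The brighter one, 1370452_at, read 3.56, 3.77, 3.67 and 3.54 in control rats, 3.47, 3.21, 3.39 and 3.63 at 8 weeks, 3.38, 3.22, 3.47 and 3.51 at 16 weeks, and 3.37, 3.09, 3.47 and 3.23 at 24 weeks. All arrays at 16 weeks and all at 24 weeks lay below the lowest control array, with 3.51 the nearest at 16 weeks and 3.54 the lowest control value, whereas 8 weeks and control overlapped. The log2 fold change was -0.24 at 16 weeks (SE 0.11, limma adjusted p = 0.233) and -0.34 at 24 weeks (SE 0.11, limma adjusted p = 0.145), and the exact two-sided permutation p was 0.0286 for each.

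The other Cacna1c probe set, 1370451_a_at, read 0.39, 0.20, -0.02 and 0.17 in control rats and -0.28, -0.29, -0.26 and 0.01 at 24 weeks. Of the arrays at 24 weeks, 3 lay below all control arrays and replicate 4 lay among them. The log2 fold change was -0.39 (SE 0.14, limma adjusted p = 0.178). At 16 weeks it was -0.17 (limma adjusted p = 0.533), with values of 0.18, -0.30, 0.16 and 0.01. All 24-week arrays are at the lower level of medians and all control arrays at the higher. A fit with the level as a block gave -0.33 for 1370452_at and -0.35 for 1370451_a_at at 24 weeks (limma adjusted p = 0.488 and 0.569). On the values as deposited, with no centring, both Cacna1c probe sets passed at 24 weeks, where 3839 of all 31042 probe sets passed. The log2 fold changes were -0.55 and -0.60 (limma adjusted p = 0.0218 and 0.0260), where the median array was lower by 0.21 at 24 weeks than in control rats.

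Hcn2, a pacemaker channel gene of ventricular muscle, split into pairs of arrays at 16 weeks. Its probe set 1370966_at read 3.34, 2.74, 2.75 and 2.88 in control rats, 3.16, 3.06, 3.11 and 2.65 at 8 weeks, 2.27, 2.27, 3.17 and 3.18 at 16 weeks, and 3.25, 3.07, 2.92 and 3.21 at 24 weeks. Replicates 1 and 2 at 16 weeks lay below every other array of the series, and replicates 3 and 4 lay within the control range. The low pair are the arrays at the higher level of medians and the other pair those at the lower level. The log2 fold change at 16 weeks was -0.20 (SE 0.20, limma adjusted p = 0.648) over all 4 arrays. On the higher-level arrays alone it was -0.65 (limma adjusted p = 0.063). A fit without the lower-level pair at 16 weeks, chosen after seeing the data, sets the same low pair against the same control arrays. Its log2 fold change was therefore the same, -0.65, and it passed (limma adjusted p = 0.0355). Since it keeps only the 2 arrays that read low, this pass is no separate support for a fall. Without the higher-level pair, also chosen after seeing the data, the log2 fold change was 0.25. At 8 and 24 weeks the log2 fold changes were 0.07 and 0.19 (limma adjusted p = 0.993 and 0.705). With the level as a block they were -0.07 and -0.36 (limma adjusted p = 0.978 and 0.634), so their sign turned with the level, and the value at 16 weeks was -0.48 (limma adjusted p = 0.155).

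Hcn4 was close to the level of the median probe set and did not differ detectably between groups. The probe set 1387997_at ran between -0.17 and 0.27 in control rats, -0.06 and 0.15 at 8 weeks, 0.06 and 0.30 at 16 weeks, and 0.07 and 0.71 at 24 weeks. The 24-week maximum was replicate 2, the array that also had the lowest Scn4b of its group, and the groups overlapped throughout. The log2 fold changes were -0.02, 0.11 and 0.21 at 8, 16 and 24 weeks, with intervals that reached at most 0.49 and limma adjusted p of 0.471 or more.

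For Gja1, the ventricular gap junction gene, no change was detected in any of its 3 probe sets. The most intense, 1372002_at, was brighter than 99.5% of all probe sets and read 6.71, 6.94, 6.77 and 6.64 in control rats, 6.78, 6.47, 6.74 and 7.10 at 8 weeks, 6.72, 6.99, 6.90 and 7.04 at 16 weeks, and 6.64, 6.78, 6.92 and 6.57 at 24 weeks. The groups overlapped at every time. The log2 fold changes were 0.01, 0.15 and -0.04 at 8, 16 and 24 weeks, with intervals of -0.26 to 0.27, -0.11 to 0.41 and -0.30 to 0.22 (limma adjusted p = 0.999, 0.561 and 0.917).

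The other Gja1 probe sets did not track it. The values of 1369640_at spread from 1.16 to 2.41 over the 4 control arrays, and those of 1369639_at, brighter than only 17.5% of all probe sets, stayed between -2.20 and -1.72 on all arrays. Over the 16 arrays the Pearson r of 1372002_at was -0.41 with 1369639_at and -0.04 with 1369640_at (permutation p = 0.114 and 0.894, Spearman rho -0.46 and -0.01 with permutation p = 0.0742 and 0.987). None of the 3 probe sets of Gja1 had a limma adjusted p under 0.56 in any comparison with control.

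The remaining connexins likewise had no call. Gja4 (1370023_at) read 2.00, 1.89, 2.06 and 2.13 in control rats, 1.96, 2.48, 2.14 and 2.23 at 8 weeks, 1.91, 2.05, 1.65 and 1.73 at 16 weeks, and 2.09, 2.00, 2.28 and 1.96 at 24 weeks. Its highest mean was at 8 weeks and its lowest at 16 weeks, and 16 against 8 weeks gave the smallest unadjusted p of all 12 probe sets in that comparison, 0.0059, with a log2 fold change of -0.37 (SE 0.12, limma adjusted p = 0.49). The groups overlapped, replicate 2 at 16 weeks being above replicate 1 at 8 weeks. The lower pair at 16 weeks were the 2 arrays at the lower level of medians, and on the higher-level arrays alone the value for 16 against 8 weeks was -0.13 (limma adjusted p = 0.782). Against control the 3 log2 fold changes in order of time were 0.18, -0.19 and 0.06 (limma adjusted p = 0.929, 0.418 and 0.852).

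Gjc1 (1384139_at) was higher on average at all 3 times after ACF without passing. Its means were 1.49 ± 0.23 in control rats, 1.77 ± 0.22 at 8 weeks, 1.73 ± 0.20 at 16 weeks and 1.69 ± 0.20 at 24 weeks (SD, n = 4 each), and the groups overlapped in each case. The log2 fold changes were 0.28, 0.25 and 0.20 (SE 0.14 each, limma adjusted p = 0.84, 0.37 and 0.519).

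Gja5 had 2 probe sets that went apart. The brighter, 1368473_at, read 1.03, 1.17, 1.28 and 1.40 in control rats and 1.52, 2.07, 1.73 and 0.95 at 24 weeks. At 24 weeks 3 arrays lay above all control arrays and replicate 4 below them, and the log2 fold change was 0.35 (SE 0.21, limma adjusted p = 0.435). Without that replicate it was 0.56 (limma adjusted p = 0.106). At 16 weeks replicate 2 read 1.87 and the other 3 arrays 1.09 to 1.15, against 1.03 to 1.40 in control rats. The dimmer probe set 1387207_at, brighter than 22.2% of all probe sets, gave log2 fold changes of 0.04, -0.23 and -0.06 at 8, 16 and 24 weeks (limma adjusted p = 0.999, 0.537 and 0.917), and of 0.13, -0.04 and 0.32 with the level as a block (limma adjusted p = 0.943, 0.94 and 0.677). For 1368473_at at 24 weeks the block gave 0.53 (limma adjusted p = 0.572). The Pearson r between the 2 Gja5 probe sets over the 16 arrays was 0.09 (permutation p = 0.744, Spearman rho -0.08, permutation p = 0.763). Gja5 also marks arterial endothelium, and of 7 other arterial endothelial markers 0 passed at any time, with a mean level of 2.22 to 2.48 at 24 weeks and 2.26 to 2.46 in control rats. The mean of 4 atrial muscle markers varied widely within groups, from 2.45 to 6.06 at 24 weeks and 0.92 to 4.54 in control rats. Of the 4, 1 rose at 16 weeks, where 5.47% of all probe sets passed in either direction. The median log2 fold change of the 4 against control was 1.21, 0.38 and 1.13 at 8, 16 and 24 weeks. With their mean as a covariate, a fit chosen after seeing the data, the log2 fold change of Gja5 1368473_at at 24 weeks was 0.24 (limma adjusted p = 0.672). Whether this covariate stands for atrial tissue or for a change after ACF was not tested.

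Among the 66 pairs of the 12 probe sets, 1 pair had a correlation that passed adjustment over the pairs. Gja5 1368473_at and Cacna1c 1370451_a_at ran opposite ways over the 16 arrays, with Pearson r = -0.81 (permutation p = 0.00014, adjusted p = 0.00924) and Spearman rho = -0.78 (permutation p = 0.00062, adjusted p = 0.0409). Leaving out the 2 arrays with the most extreme Gja5 values gave r = -0.75. It was -0.93 over the 9 arrays at the higher level of medians and -0.84 over the 7 at the lower level, and -0.78 after the group means were taken away. The other 3 pairs of a Gja5 with a Cacna1c probe set did not pass: r was -0.44 for 1368473_at with 1370452_at (0.05 without the 2 farthest arrays), 0.01 for 1387207_at with 1370451_a_at and 0.09 for 1387207_at with 1370452_at (permutation p = 0.0851, 0.968 and 0.741, and Spearman rho -0.24, 0.11 and 0.19 with permutation p = 0.361, 0.687 and 0.484). The correlation of 1370452_at with 1370451_a_at was 0.50 (permutation p = 0.0507, Spearman rho 0.51, permutation p = 0.0475) before adjustment.

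Counts of arrays that did not overlap can be read against the whole array. The groups did not overlap for 1 of the 12 probe sets at 8 weeks (Scn4b), 2 at 16 weeks (Scn4b and Cacna1c 1370452_at) and 1 at 24 weeks (Cacna1c 1370452_at), against 4.9%, 13.1% and 8.83% of all probe sets. For 16 against 8 weeks it was 1 (Scn4b), for 24 against 16 weeks 0 and for 24 against 8 weeks 0, against 3.72%, 2.64% and 2.74%. With only 12 probe sets, these counts lay near the shares of the whole array.

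**Figure D3:**
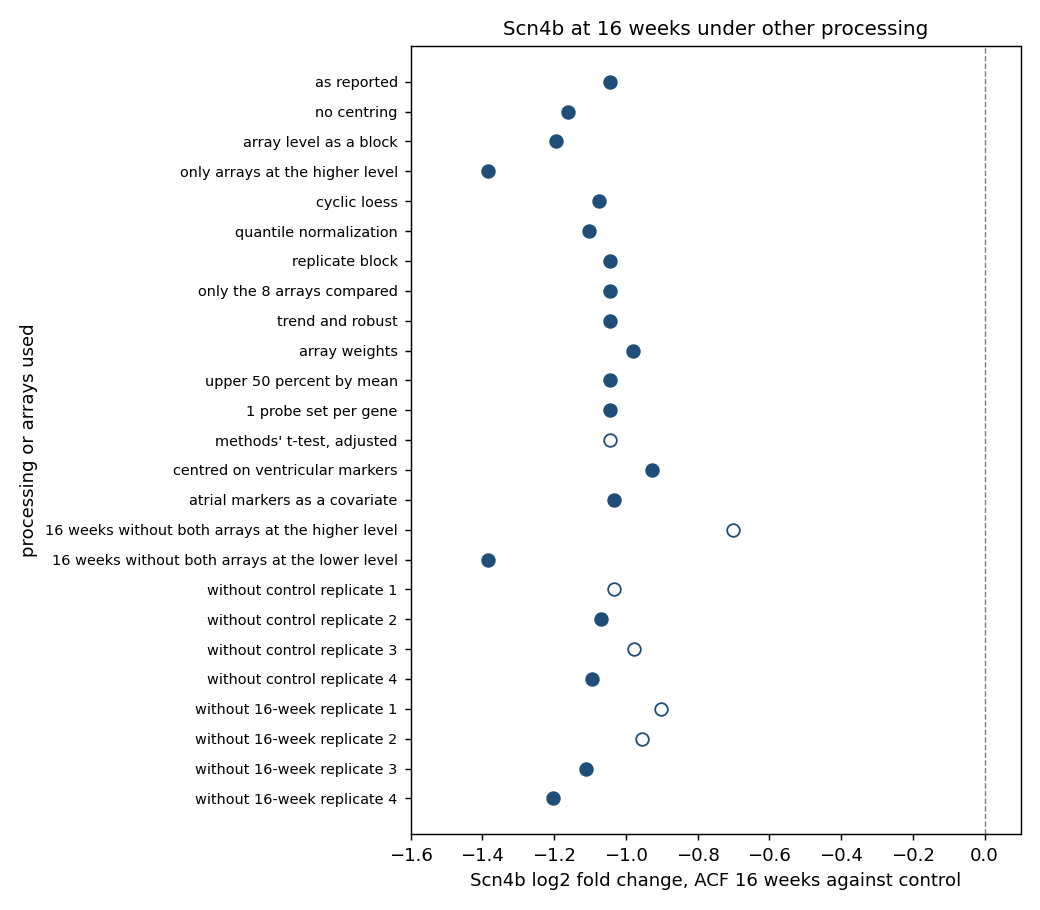
Scn4b log2 fold change at 16 weeks against control (x axis) under each processing or choice of arrays (y axis), with filled points where the adjusted p was under 0.05. Every point lies below 0, between -1.38 and -0.70, and the open points include the fits without control replicate 1 or 3 or without 16-week replicate 1 or 2.

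The partners of these genes were taken from lists of related genes, with 1 probe set per gene. Of 11 other voltage-gated sodium channel subunits measured, 0 passed at any time against control, and their median log2 fold change at 16 weeks was -0.0029, against -0.011 over all probe sets. Scn3b, another beta subunit, had a log2 fold change of 0.80 at 16 weeks (SE 0.30, limma adjusted p = 0.141). Hcn3, a further gene of the pacemaker channel family, had log2 fold changes of -0.15, -0.12 and 0.06 at 8, 16 and 24 weeks and did not pass.

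Of 7 other connexins measured, 0 passed at any time, with a median log2 fold change of 0.05 at 16 weeks. Gja3, a connexin known from the lens, had the furthest value, -0.66 at 16 weeks (SE 0.22, limma adjusted p = 0.0958). Tjp1, a scaffold protein bound to gap junctions, averaged 5.40 at 16 weeks, against 5.42 in control rats (limma adjusted p = 0.941).

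Of 18 other voltage-gated calcium channel subunits, 1 fell at 16 weeks, which lay near the 5.47% of all probe sets that passed. None of the 18 passed at 8 or 24 weeks. The gene that fell was Cacng6, a gamma subunit, with a mean of -0.54 at 16 weeks, against 0.06 in control rats (log2 fold change -0.60, SE 0.16, limma adjusted p = 0.0356). The T-type pore genes Cacna1g and Cacna1h had log2 fold changes of 0.57 and 0.94 at 16 weeks without passing (limma adjusted p = 0.146 and 0.183). The L-type partners Cacnb2 and Cacna2d1, an intracellular and an extracellular subunit, had log2 fold changes of -0.17 and 0.02 at 16 weeks (limma adjusted p = 0.456 and 0.971).

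The intercalated disc is the junction between muscle cells that holds gap junctions and sodium channels. Of 21 genes of the disc and of channel partners, 2 rose and 1 fell at 16 weeks, where 5.47% of all probe sets passed. None of the 21 passed at 8 or 24 weeks. Cdh2, the cadherin of the disc, averaged 5.65 at 16 weeks, against 5.22 in control rats (log2 fold change 0.43, SE 0.11, limma adjusted p = 0.0328). Dsg2, a desmosomal cadherin, averaged 4.71 at 16 weeks, against 4.22 in control rats (log2 fold change 0.49, SE 0.11, limma adjusted p = 0.0165). Ank2, an ankyrin that anchors ion transporters, averaged 2.33 at 16 weeks, against 3.06 in control rats (log2 fold change -0.73, SE 0.13, limma adjusted p = 0.00429). The median log2 fold change over the 21 genes was 0.02. Ank2 passed in every fit that left out 1 array, but not with the methods' t-test after adjustment (adjusted p = 0.117) or without the 2 higher-level arrays at 16 weeks (log2 fold change -0.67, limma adjusted p = 0.0733). In both of these Cdh2, Dsg2 and Cacng6 lost their calls too. Cacng6 lost its call without control replicate 1 or 2 or without 16-week replicate 1, 2 or 3 (limma adjusted p = 0.0643 to 0.126), and also with the level as a block (0.0764), on the higher-level arrays alone (0.0848), without the lower-level pair at 16 weeks (0.083), on the 8 arrays compared (0.07) and with ventricular marker centring (0.092). Cdh2 lost its call without control replicate 1, 2 or 3 or 16-week replicate 1 or 2 (limma adjusted p = 0.0715 to 0.111) and on the higher-level arrays alone (0.0534), and Dsg2 without control replicate 1 or 16-week replicate 1 or 3 (limma adjusted p = 0.0501 to 0.0621) and on the 8 arrays compared (0.0552). With no centring Cdh2 and Dsg2 had log2 fold changes of 0.31 and 0.37 and did not pass (limma adjusted p = 0.154 and 0.0865). Of 18 transcription factors of conduction system and working muscle, 0 passed at any time, and 12 of the 18 had a log2 fold change below 0 at 16 weeks (median -0.18, against -0.011 over all probe sets).

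**Figure D4:**
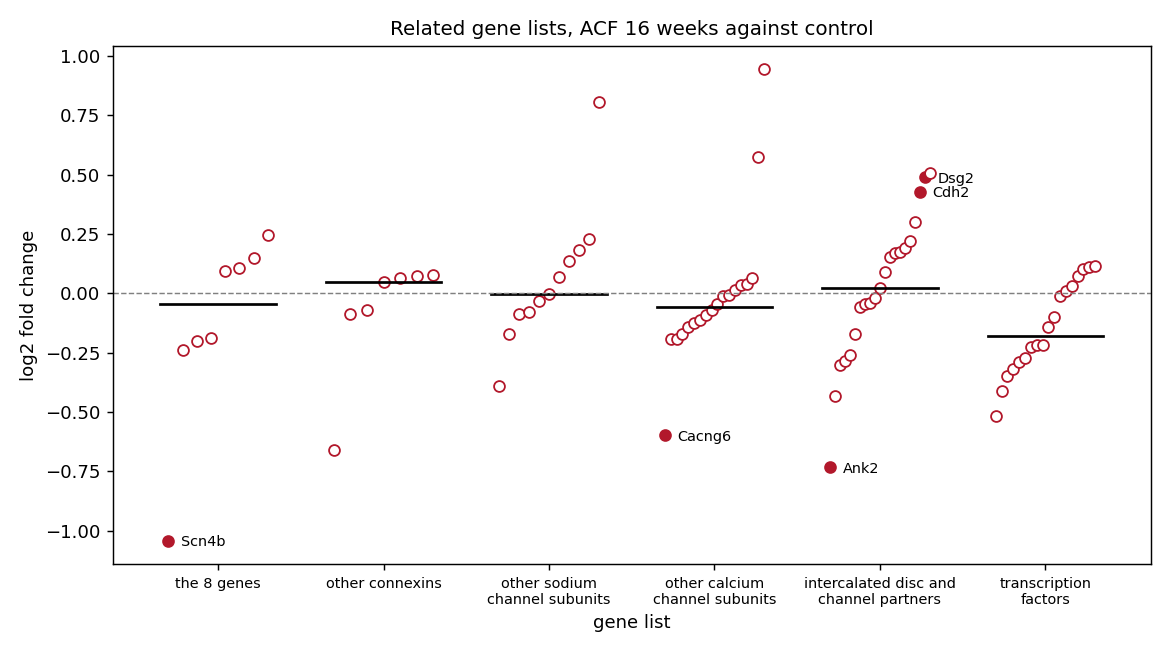
Log2 fold change at 16 weeks against control (y axis) of every measured gene in 6 lists (x axis), 1 probe set per gene, with filled, named points where the adjusted p was under 0.05 and a line at the median of each list. Scn4b, Cacng6 and Ank2 lie below 0 and Cdh2 and Dsg2 above 0, and the list medians run from -0.18 to 0.05.

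The genes most like each member were found by Pearson r over the 16 arrays, as a description with no test, since they were the extremes of all named genes. Scn4b had the closest followers: Dhrs7c, a dehydrogenase of the sarcoplasmic reticulum (r = 0.95), Ndufb7, a subunit of respiratory complex I (r = 0.94), and Rbfox1, a splicing regulator of muscle and neurons (r = 0.93). After the group means were taken away these were 0.89, 0.86 and 0.85. The 3 genes were picked by r over the same arrays, so these values are no separate support. Hcn2 was most like Slc2a4, the insulin-regulated glucose transporter gene (r = 0.85, and 0.84 within groups). Cacna1c 1370452_at was most like Malsu1, a mitochondrial ribosome assembly factor (r = 0.88, and 0.85 within groups). Next to it was Ehhadh, a peroxisomal enzyme of fatty acid oxidation (r = 0.88, and 0.75 within groups). For Gja1, Gja4, Gja5, Gjc1 and Hcn4 the closest genes were Kdm2b, Ndrg3, Cdh11, Tmem39a and Fam72a, with r between 0.82 and 0.92. All points share the array, its level of medians and its normalization.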

How the data were processed

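Expression was measured on 16 Affymetrix arrays of rat LV, 4 per group. The authors deposited log2 intensities, summarised per probe set by RMA with Affymetrix Expression Console 1.2 (which corrects background and makes the array distributions alike). The methods name a different rat array than the probe set identifiers belong to. The 57 control probe sets were left out and each array was centred on its median. Symbols came from the platform annotation (20826 probe sets with 1 symbol, 436 with several, 9780 not named), and the 12 used here have the same symbol in a current rat gene table. A model with 1 mean per group was fitted with limma 3.58.1 in R 4.3.3 and tested on simulated data. SE is that of the model and SD the spread of 4 arrays. Exact tests ran over all splits of 4 against 4 arrays and correlations over 100000 permutations, all two-sided. Brightness ranks the mean over 16 arrays. All 12 probe sets of the members are named, with up to 6 passing genes per related list (the smallest adjusted p) and fixed partner genes; Gja3, Scn3b, Cacna1g and Cacna1h were chosen after their values were seen. Members and lists were chosen with earlier results of these data known. No sequence or coordinate was used, and the number of arrays limits the precision.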

Additional observations from a re-analysis of the deposited data

Results flagged for a closer look

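In 4 of the 48 sets of 4 arrays (12 probe sets in 4 groups), 1 array stood apart from its group by a gap beyond the 95% critical value of Dixon's test. Chance alone gives about 1 in 20 such sets. Gja1 1369640_at read 2.62 on replicate 1 at 8 weeks, with the other 3 arrays between 1.76 and 1.88. The same probe set read 1.97 on replicate 4 at 24 weeks, with the others between 1.82 and 1.84, a difference that is small beside the control range. Gja5 1368473_at read 1.87 on replicate 2 at 16 weeks, with the others between 1.09 and 1.15. Cacna1c 1370451_a_at read 0.0072 on replicate 4 at 24 weeks, with the others between -0.29 and -0.26. For no probe set did 1 time after ACF lie wholly above and another wholly below the control mean, and no difference between times passed the test.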

How the results depend on the processing

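The number of the 12 probe sets past the threshold was 1 at 16 weeks and 0 in the other 5 comparisons. Most alternatives left these counts as they were. With no centring the count at 24 weeks was 3, Scn4b (-0.76, adjusted p = 0.0476) and both Cacna1c probe sets, where 3839 of all 31042 probe sets passed. On the higher-level arrays alone the count for 16 against 8 weeks was 1, Scn4b, where 224 of all 31042 passed. At the methods' threshold (fold change above 1.5 with an unadjusted p under 0.05) it was also 1, Scn4b, where 208 of all 31042 passed. With the methods' t-test adjusted over all probe sets the count at 16 weeks was 0 (Scn4b adjusted p = 0.114). Leaving out each array in turn gave 0 to 1 at 16 weeks and 0 in the other comparisons. The ventricular marker centring and the atrial marker covariate were chosen after seeing the data, and neither changed a call of the 12. So were the fits of 16 weeks without 1 of its pairs of arrays. Without its 2 higher-level arrays the count at 16 weeks was 0, where 256 of all 31042 probe sets passed. Without its 2 lower-level arrays it was 2 (Scn4b and Hcn2) at 16 weeks, where 2137 of all 31042 passed. For 24 against 16 weeks it was then 1 (Hcn2, 0.84, adjusted p = 0.0485), where 153 of all 31042 passed. The replicate block also gave 1 at 16 weeks and 0 in the others, and changed no call (Scn4b -1.04, adjusted p = 0.0100). The arrays share only a number: the deviations of same-numbered arrays from their group means correlated at -0.27 to 0.24.

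The Scn4b log2 fold change at 16 weeks ran from -1.38 to -0.70 over 33 alternatives and passed in 27 of them, 1 of these at the methods' threshold. The 27 include every fit that left out an array of 8 or 24 weeks. Those fits keep all compared arrays, so the log2 fold change stayed at -1.04. They say little on how far the call rests on single compared arrays. Some fits without a control or 16-week array lost the call, as given with the Scn4b values above. Of the values of the 12 probe sets over all alternatives and comparisons, none that passed changed sign, and signs turned only for log2 fold changes up to 0.39 in size. Over all probe sets the alternatives other than leaving out single arrays moved the count at 16 weeks between 88 (methods' t-test, adjusted) and 2405 (higher-level arrays alone, which hold no 24-week array) and at 24 weeks between 0 (methods' t-test, adjusted) and 3839 (no centring), against 1698 and 136. No centring left 26.8% of the calls at 16 weeks and 3.78% at 24 weeks as rises, against 66.1% and 61.8%. No array at 24 weeks had the higher level and no control array the lower, so that comparison has no value within a level. On the lower-level arrays alone, chosen after seeing the data, none of the 12 passed between times, with 1 array at 8 weeks assumed to vary like the others. Signal over background could not be tested, since the values hold no detection calls.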
